A study of Drosophila melanogaster with 6 samples.

Results

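Cytochrome P450 genes encode heme-containing monooxygenases, which insert an oxygen atom from molecular oxygen into fatty acids, steroid hormones, plant toxins and insecticides. Enzymes in the endoplasmic reticulum take electrons from cytochrome P450 reductase (Cpr) or cytochrome b5, and those in mitochondria take them from adrenodoxin reductase (dare in flies) through a ferredoxin. In insects the Cyp6, Cyp9, Cyp28 and Cyp309 genes are best known for clearing toxins, Cyp4 genes for fatty acid and hydrocarbon oxidation, and Cyp12 genes are the mitochondrial group linked to insecticide tolerance. UDP-glycosyltransferases such as Ugt35b, the target of the study, commonly conjugate products that P450 enzymes have oxidised.

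The P450 genes were taken as the rows of a gene count table whose FlyBase identifier maps to a symbol starting with Cyp and a digit. This gave 86 of 17753 rows. Of these, 2 rows, Cyp1 and Cyp40, are cyclophilins, which fold proteins and are not P450 enzymes, so 84 rows were described as P450 genes. Genes of ecdysone synthesis that carry other names, such as sad, phtm and dib, were not included.

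The data were RNA-seq libraries from male *Drosophila melanogaster* at day 10, with 10 flies in each. All flies carried a Ugt35b RNA interference construct under Repo-GS, a pan-glial GeneSwitch driver that the drug RU486 turns on. The group with the driver on was fed RU486, and its reference of the same genotype was fed ethanol (EtOH), with 3 libraries each. The labels name the tissue head in one field and brain in another. Flies fed RU486 without the RNAi construct were not analysed here, so effects of the drug and of the knockdown cannot be told apart. Nothing in the labels ties a library to its own vial of flies, and p-values therefore cover only the variation among these libraries, part of which may be technical.

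Library totals were 10156909 to 10633167 counts with RU486 and 11689966 to 12636787 counts with EtOH. The target, listed as Ugt35B1, was at 106, 83.5 and 104 CPM (counts scaled to a common library size and expressed as parts per 1000000) with RU486, against 145, 136 and 147 CPM with EtOH. It fell by 0.54 on the log2 scale (SE 0.09, edgeR adjusted p = 0.00865), and its call was lost without EtOH replicate 3 (adjusted p = 0.0566). Eye and muscle genes (ninaE, ninaC, norpA, trp and Mhc) summed to 49441 to 51860 CPM with RU486 and 49646 to 59075 CPM with EtOH and were thus abundant in every library. Of the brain and glial markers nSyb, Syt1, repo, nrv2 and Gs2, edgeR called 0 of 5 tested, 1 had an unadjusted p below 0.05 and DESeq2 called 0. Of all tested genes edgeR called 3.28% lower and 4.36% higher, so few calls would be due among 5 genes. The neuronal marker elav was close to 0, at a mean of 0.193 CPM with RU486 and 0.171 CPM with EtOH. Whether the low elav value reflects expression or counting was not tested. EtOH replicate 2 was the lowest EtOH library for 36 of the 56 P450 genes that could be tested, and for 44.6% of all tested genes.

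Of the 84 P450 genes, 56 had enough counts to be tested, 8 had between 2 and 25 counts over all 6 libraries (from Cyp313a5 to Cyp6a16), and 20 had no count in any. In 17 of those 20 the whole gene lies inside another protein-coding gene. In the entire table, 1001 of 1001 protein-coding genes inside a gene of the other strand had no count, as had 839 of 845 inside a gene of the same strand, against 1057 of 11999 elsewhere. A 0 for such a gene therefore says nothing about its expression. Cyp4g1, the oenocyte enzyme that makes cuticular hydrocarbons, was among these 17, as were Cyp6a2, Cyp49a1, the Cyp4ac genes inside tkv and the Cyp4p genes inside hig. The other 3 without a count were Cyp4d2, 98.7% of whose exonic bases are shared with an antisense RNA gene, Cyp6t1, and Cyp12d1-d, a near-identical copy of Cyp12d1-p. Cyp12d1-p itself had 11 to 20 counts with RU486 and 18 to 30 with EtOH, and reads that match both copies equally cannot be assigned to either.

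Levels between genes were compared as CPM per kilobase of exon, with SD over 3 libraries. Cyp4d21, also known as sxe1, a male-biased gene of head fat body linked to courtship, had the highest level, at 243 ± 34.7 with RU486 and 258 ± 44.0 with EtOH. Cyp6g1, whose overexpression gives resistance to DDT, was at 166 ± 14.1 and 224 ± 21.6. Cyp9f2 was at 150.2 ± 11.8 with RU486 and 167 ± 6.20 with EtOH, and Cyp4g15, a Cyp4 gene known from the nervous system, at 149 ± 6.23 and 122.8 ± 5.17. Cyp28d1, linked to nicotine resistance, was at 114 ± 6.49 with RU486 and 172 ± 17.2 with EtOH. The EtOH values of Cyp9f2 and Cyp28d1 lay within their spread of each other, so their order is not resolved. The lowest tested value was that of Cyp12d1-p, with a mean of 0.372 over both groups. Reads that match its copy Cyp12d1-d equally cannot be assigned to it, and its exons hold 4482 bases against a median of 1820.5. The 10 P450 genes with most counts held 70.6% of the summed P450 CPM with RU486 and 70.3% with EtOH.

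**Figure D1:**
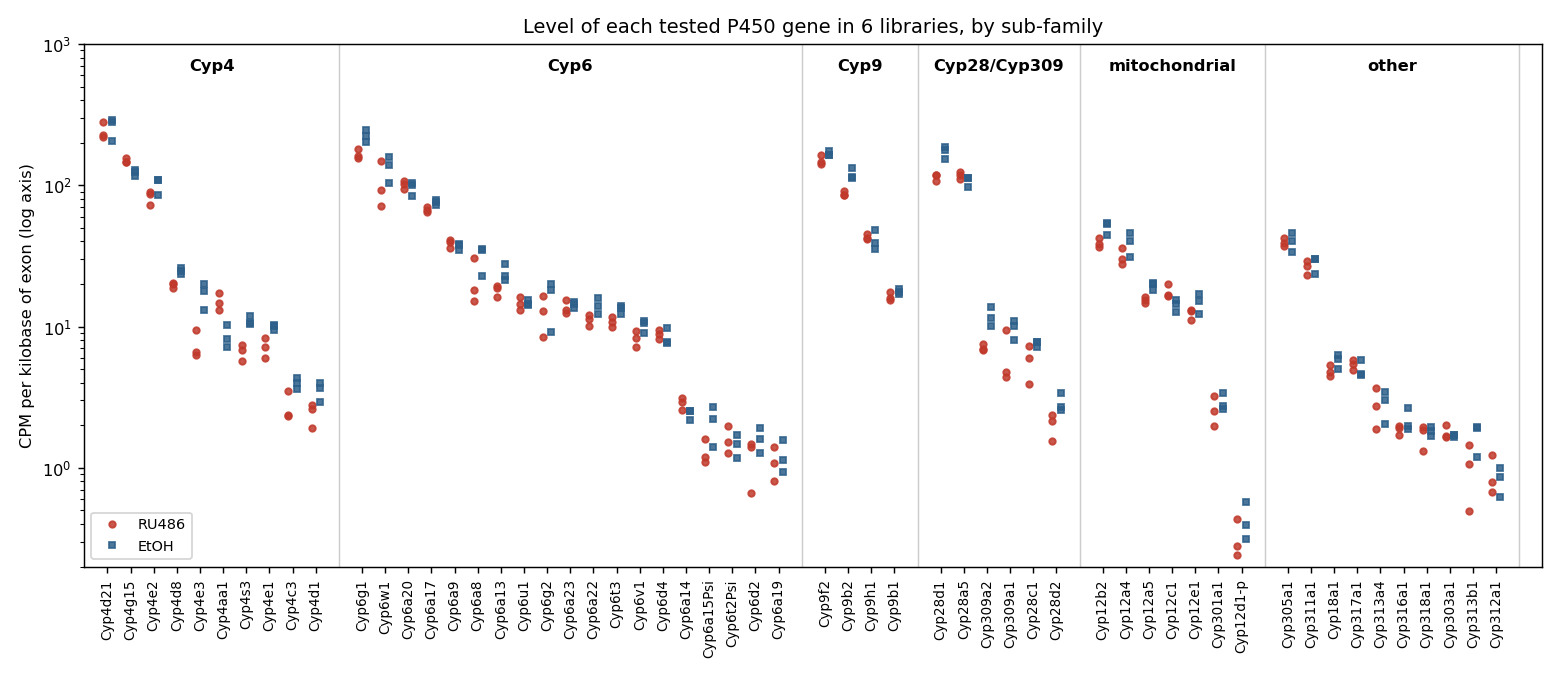
CPM per kilobase of exon (log axis) of the 56 tested P450 genes, with 3 RU486 libraries as circles and 3 EtOH libraries as squares, ordered by mean level within each sub-family. Cyp4d21 is highest, and levels within the Cyp6 and mitochondrial groups span more than the differences between RU486 and EtOH.

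P450 genes that passed the test were mostly lower with RU486. Of the 56 tested, 9 fell, 1 rose and 46 did not pass (edgeR's quasi-likelihood test, Benjamini-Hochberg adjusted p under 0.05 over 8945 genes). Among all 8945 genes tested, 3.28% were called lower and 4.36% higher, whereas among the tested P450 genes 16.1% were called lower. The median log2 fold change (RU486 minus EtOH) of the tested P450 genes was -0.28, against 0.00 for all genes tested, and 43 of the 56 had a negative value. Every RU486 library lay below every EtOH library in 17 of the 56 P450 genes, or 30.4%, compared with 13.5% of all tested genes. The opposite held for 4 P450 genes and for 13.9% of all tested genes. In bulk tissue, fewer cells of a type and less RNA per cell cannot be told apart.

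**Figure D2:**
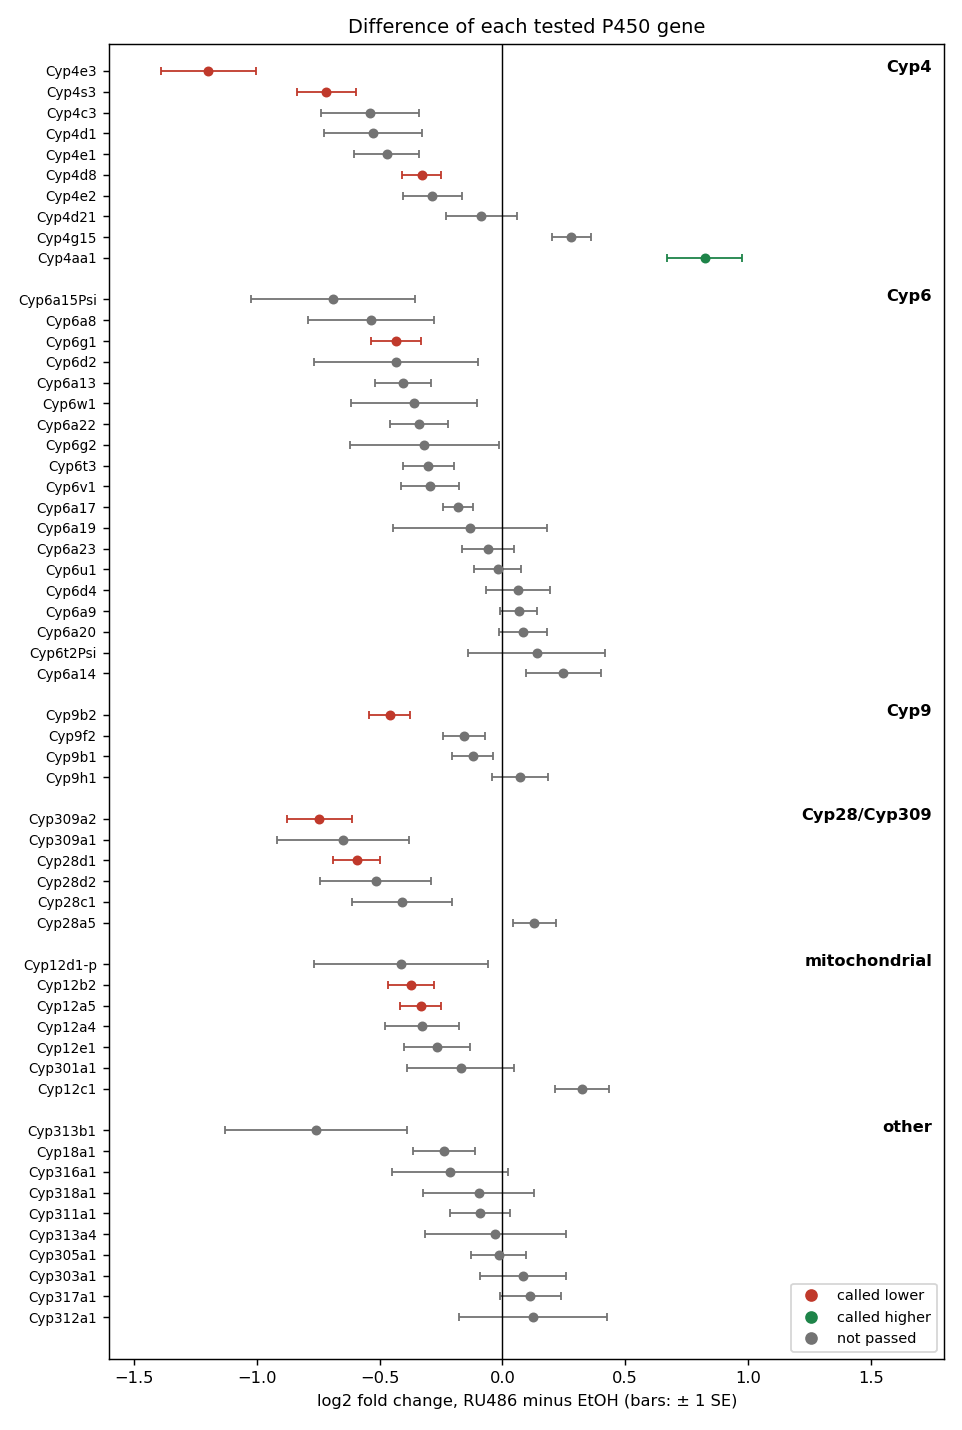
Log2 fold change of each tested P450 gene, RU486 minus EtOH, with bars of 1 SE, by sub-family; colours mark genes called lower, called higher or not passed. The 9 genes called lower lie between -1.20 and -0.33, and Cyp4aa1, called higher, lies at 0.82.

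In the Cyp4 group 10 of 22 genes were tested, and 3 fell, 1 rose and 6 did not pass. Cyp4e3, linked to permethrin tolerance in the Malpighian tubule (chromosome 2L, 9747839 to 9750071, minus strand), was at 11.98, 11.3 and 16.97 CPM with RU486, against 36.2, 32.4 and 23.8 CPM with EtOH. The groups did not overlap, and Cyp4e3 was 2.29-fold lower with RU486 (log2 fold change -1.20, SE 0.19, edgeR adjusted p = 0.00605). Cyp4s3 (chromosome X, 15113302 to 15116542, minus strand) was at 15.6, 12.98 and 16.97 CPM with RU486 and 27.0, 24.2 and 23.7 CPM with EtOH. It too fell without overlap, by 0.72 on the log2 scale (SE 0.12, adjusted p = 0.00748). Of its exonic bases, 20.1% are shared with Rab3-GEF on the other strand, a gene at 339 ± 6.14 CPM with RU486 and 301.3 ± 67.0 CPM with EtOH that did not pass (adjusted p = 0.545). Cyp4d8 (chromosome 3L, 7493557 to 7496197) was at 29.9 to 32.6 CPM with RU486 and 37.6 to 41.5 CPM with EtOH. This smaller fall, of 20.4% in the mean, passed with an adjusted p of 0.0369, and Cyp316a1 beside it, at 2.72 ± 0.221 and 3.15 ± 0.613 CPM, did not pass (adjusted p = 0.657).

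Cyp4aa1 was the 1 P450 gene that rose (chromosome 2R, 15942864 to 15947266, plus strand). It was at 27.5, 36.6 and 30.9 CPM with RU486, against 21.5, 14.98 and 17.1 CPM with EtOH. The lowest RU486 library was thus above the highest EtOH library, and the mean was 1.77 times as high (log2 fold change 0.82, SE 0.15, edgeR adjusted p = 0.0119). Strn-Mlck, on the other strand, shares 15.8% of the exonic bases of Cyp4aa1. Strn-Mlck was at 310.2, 309.1 and 332 CPM with RU486 and 249, 281 and 222 CPM with EtOH, also without overlap, but did not pass (log2 fold change 0.34, adjusted p = 0.0765). Whether Strn-Mlck reads contribute to the rise of Cyp4aa1 was not tested.

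Other Cyp4 genes differed by less or varied more. Cyp4g15 was at 412, 385 and 382 CPM with RU486, against 335, 308 and 326 CPM with EtOH. The groups did not overlap, yet Cyp4g15 did not pass edgeR's test (log2 fold change 0.28, SE 0.08, adjusted p = 0.0691), while DESeq2 called it (adjusted p = 0.0120), as did edgeR without EtOH replicate 2 (adjusted p = 0.0390). Cyp4e1, a neighbour of Cyp4e2 on chromosome 2R, was at 10.7 to 14.6 CPM with RU486 and 16.6 to 18.1 CPM with EtOH (adjusted p = 0.0670), and was called without RU486 replicate 1. The low-abundance Cyp4c3 and Cyp4d1 also lay lower in every RU486 library, Cyp4c3 at 4.44 to 6.66 CPM with RU486 and 6.83 to 8.30 CPM with EtOH, and Cyp4d1 at 4.34 to 6.38 CPM with RU486 and 6.67 to 9.07 CPM with EtOH. Both had few counts, and neither passed (adjusted p = 0.153 for Cyp4c3 and 0.157 for Cyp4d1). Cyp4e2 was at 157 ± 17.8 CPM with RU486 and 192 ± 26.4 CPM with EtOH, with overlap, and did not pass (adjusted p = 0.202). The most abundant member, Cyp4d21, was at 515, 397 and 416 CPM with RU486, against 508, 377 and 523 CPM with EtOH. Its groups overlapped throughout (log2 fold change -0.09, SE 0.14, adjusted p = 0.790), and it spread more widely among EtOH libraries than between the group means.

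The Cyp28 and Cyp309 genes had the largest median difference of the 6 groups, -0.56, with all 6 genes tested. Among them 2 fell, 0 rose and 4 did not pass. DESeq2 called 2. Cyp28d1 (chromosome 2L, 5210460 to 5212445, plus strand) was at 172, 189.6 and 191 CPM with RU486, against 287, 247 and 299.7 CPM with EtOH. All RU486 libraries lay well below the lowest EtOH library, and the mean was 33.8% lower (log2 fold change -0.59, SE 0.09, edgeR adjusted p = 0.00561, the smallest of any P450 gene). Its neighbour Cyp28d2 was far less abundant, at 2.61, 3.56 and 3.95 CPM with RU486 and 4.26, 4.54 and 5.66 CPM with EtOH. Cyp28d2 did not overlap between groups either, but did not pass (log2 fold change -0.52, SE 0.23, adjusted p = 0.222).

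Cyp309a2 (chromosome 2L, 2564886 to 2573037, minus strand) was at 12.8, 12.5 and 13.8 CPM with RU486, against 25.4, 18.7 and 21.3 CPM with EtOH. It fell by 0.75 on the log2 scale (SE 0.13, edgeR adjusted p = 0.00929), without overlap. Its neighbour Cyp309a1 was at 9.47, 18.7 and 8.78 CPM with RU486 and 20.2, 16.0 and 21.8 CPM with EtOH. RU486 replicate 2 was thus within the EtOH range while the other RU486 libraries were below it, and Cyp309a1 did not pass (adjusted p = 0.195). Without that library Cyp309a1 was called, at -1.08 on the log2 scale (adjusted p = 0.00457). The digestive tract list summed to 11829 CPM in RU486 replicate 2, and the part of gut transcripts in the Cyp309a1 value was not tested. Cyp28c1 was at 12.1, 9.999 and 6.51 CPM with RU486, against 13.02, 13.01 and 11.9 CPM with EtOH, with slight overlap (log2 fold change -0.41, SE 0.20, adjusted p = 0.284). Cyp28a5 was the 1 gene of the group with a positive log2 fold change, and it did not pass. It was at 219, 194 and 208 CPM with RU486 and 198, 171 and 199 CPM with EtOH (log2 fold change 0.13, SE 0.09, adjusted p = 0.441).

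The Cyp6 group was the largest, with 19 of 24 genes tested, of which 1 fell, 0 rose and 18 did not pass. DESeq2 called 2. Cyp6g1 (chromosome 2R, 12185667 to 12188431, plus strand) was at 335, 321 and 377 CPM with RU486, against 511, 422 and 463 CPM with EtOH. The mean was 26.0% lower with no overlap (log2 fold change -0.43, SE 0.10, edgeR adjusted p = 0.0335). Cyp6g2, beside it, varied widely within each group, at 25.7, 16.7 and 32.9 CPM with RU486 and 18.2, 40.0 and 35.8 CPM with EtOH (adjusted p = 0.603). Cyp6t3, the next gene, known for ecdysteroid synthesis in the larval prothoracic gland, was at 16.7 to 19.6 CPM with RU486 and 20.8 to 23.7 CPM with EtOH (adjusted p = 0.125).

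A block of Cyp6a genes lies on chromosome 2R from 14871366 to 14889010, and 7 of its genes were tested. Their log2 fold changes ran from -0.53 to 0.08, and edgeR called 0 of 7, 2 had an unadjusted p below 0.05 and DESeq2 called 0. With 3.28% of all tested genes called lower and 4.36% higher, few calls would be due among 7 genes. Cyp6a20, linked to male aggression, was at 184, 169 and 194 CPM with RU486, against 179.6, 151 and 186 CPM with EtOH. These ranges overlapped (log2 fold change 0.08, SE 0.10, adjusted p = 0.676). Cyp6a17, linked to temperature preference, was at 112, 120.3 and 114.7 CPM with RU486 and 135, 126 and 132 CPM with EtOH, without overlap but also without passing (adjusted p = 0.122). Cyp6a22 likewise lay lower in every RU486 library, at 21.7 to 26.1 CPM with RU486 and 26.6 to 34.7 CPM with EtOH, and did not pass (log2 fold change -0.34, SE 0.12, adjusted p = 0.125). At the end of the block, Cyp6a8, a gene inducible by foreign compounds, was at 32.5, 27.0 and 54.6 CPM with RU486, against 61.9, 40.6 and 62.6 CPM with EtOH, the lowest log2 fold change of the block (-0.53, SE 0.26).

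RU486 replicate 3 was the highest RU486 library for Cyp6a8, and the same held elsewhere for Cyp6w1, linked to DDT resistance. Cyp6w1 was at 223, 170.2 and 357 CPM with RU486, against 334, 246 and 382 CPM with EtOH. The groups overlapped for both genes, and neither passed (adjusted p = 0.263 for Cyp6a8 and 0.468 for Cyp6w1). Elsewhere on chromosome 2R, Cyp6a13 was at 26.7, 31.7 and 30.8 CPM with RU486, against 45.3, 35.1 and 37.6 CPM with EtOH. It was lower in every RU486 library and did not pass edgeR's test (log2 fold change -0.40, SE 0.11, adjusted p = 0.0690), while DESeq2 called it lower. Cyp6a14, on the other side of Cyp6a15Psi, lay the other way, at 7.53 to 9.23 CPM with RU486 and 6.42 to 7.52 CPM with EtOH, and did not pass (0.25, SE 0.15, adjusted p = 0.395). Of the exonic bases of Cyp6a14, 30.1% are shared with a transposable element.

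The Cyp9 group had 4 of 6 genes tested, of which Cyp9b2 fell and 3 did not pass. Cyp9b2 (chromosome 2R, 7130277 to 7132139, minus strand) was at 143, 151 and 142 CPM with RU486, against 220.5, 187 and 192 CPM with EtOH. It was lower by 27.2% in the mean, without overlap (log2 fold change -0.46, SE 0.08, edgeR adjusted p = 0.0106). Cyp9b1 beside it was at 28.5 ± 1.82 CPM with RU486 and 31.0 ± 1.35 CPM with EtOH and did not pass (log2 fold change -0.12, SE 0.08, adjusted p = 0.455). Cyp9f2 (-0.16, SE 0.09, adjusted p = 0.331) and Cyp9h1 (0.07, SE 0.11, adjusted p = 0.768) did not pass either.

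Among mitochondrial genes 7 of 9 were tested, and 2 fell, 0 rose and 5 did not pass. DESeq2 called 1. Cyp12b2 (chromosome 2R, 18754995 to 18757083, plus strand) was at 68.3, 64.9 and 75.4 CPM with RU486, against 96.5, 79.2 and 94.3 CPM with EtOH. The groups were separate by a small margin (log2 fold change -0.37, SE 0.09, edgeR adjusted p = 0.0476). It shares 0.561% of its exonic bases with Jabba on the other strand, a lipid droplet gene that fell by 0.99 on the log2 scale (140 ± 10.1 CPM with RU486 and 278 ± 26.4 CPM with EtOH, adjusted p = 0.000440). Cyp12a5, linked to nitenpyram metabolism (chromosome 3R, 19132648 to 19134704, plus strand), was at 26.9, 28.2 and 29.6 CPM with RU486 and 37.0, 32.9 and 36.7 CPM with EtOH (log2 fold change -0.33, SE 0.08, adjusted p = 0.0423). Its neighbour Cyp12a4, linked to lufenuron resistance, had a like difference with more spread, at 46.8, 61.3 and 51.0 CPM with RU486 against 78.0, 52.7 and 68.8 CPM with EtOH, and did not pass (-0.33, SE 0.15, adjusted p = 0.246). Cyp12c1 lay in the other direction, at 31.0 to 37.9 CPM with RU486 and 23.8 to 29.1 CPM with EtOH, and did not pass (0.32, SE 0.11, adjusted p = 0.122). Cyp301a1, linked to adult cuticle, was at 3.85 to 6.21 CPM with RU486 and 5.04 to 6.51 CPM with EtOH, with overlap (adjusted p = 0.711).

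**Figure D3:**
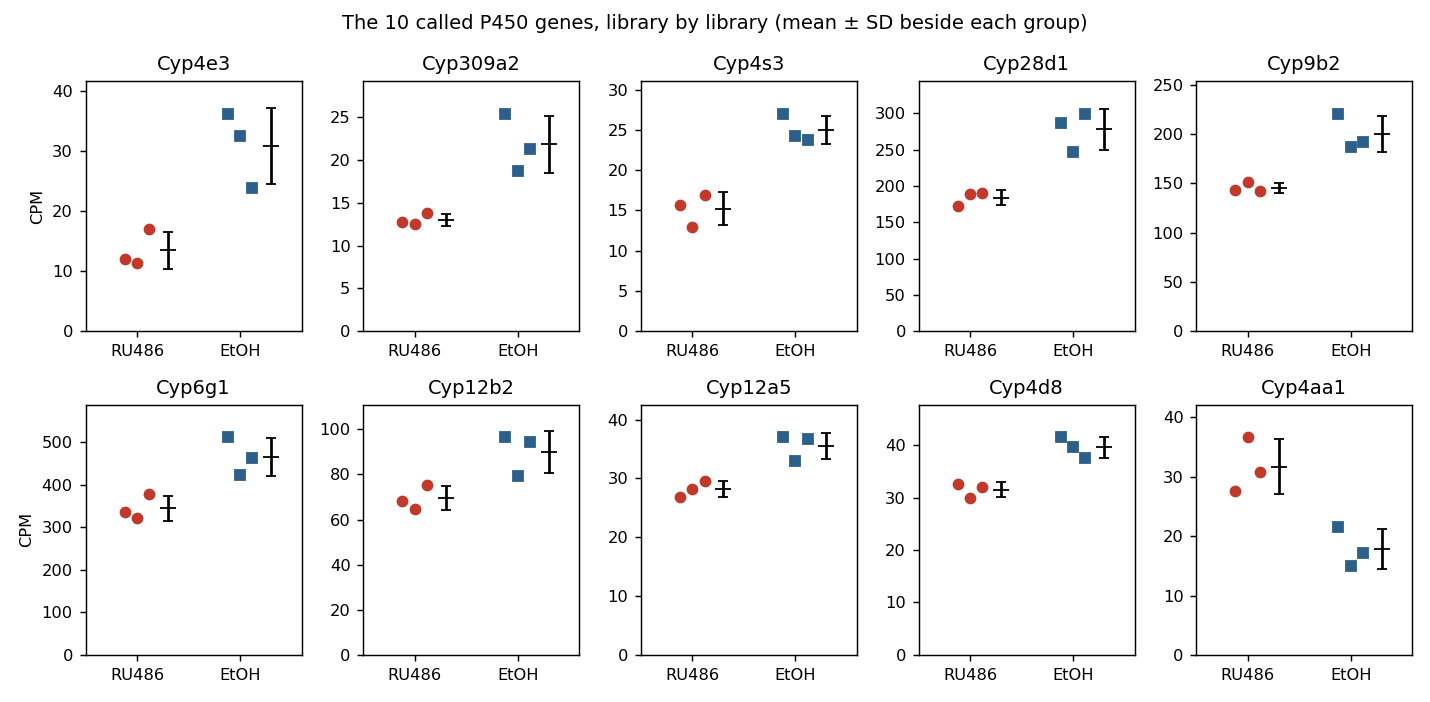
CPM in each library of the 10 P450 genes that passed the test, RU486 as circles and EtOH as squares, with mean ± SD beside each group (n = 3 each). In 9 panels every RU486 library is below every EtOH library, and in the Cyp4aa1 panel every RU486 library is above.

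The remaining P450 genes, developmental and hormone enzymes included, had no call. Of 17, 10 were tested, edgeR called 0, 0 had an unadjusted p below 0.05 and DESeq2 called 0, and the median log2 fold change was -0.06. Among all tested genes 3.28% were called lower and 4.36% higher, so 10 genes would hold few calls in any case. Cyp18a1, which inactivates ecdysteroids, was at 16.2, 14.5 and 13.6 CPM with RU486, against 19.1, 15.2 and 17.98 CPM with EtOH. Its groups overlapped and it did not pass (log2 fold change -0.24, SE 0.13, adjusted p = 0.313). The most abundant of these genes, Cyp305a1, was at 76.0, 67.1 and 70.2 CPM with RU486 and 82.8, 60.5 and 72.3 CPM with EtOH (-0.02, SE 0.11, adjusted p = 0.957). Cyp303a1, needed for bristle structure, was at 4.64 to 5.60 CPM with RU486 and 4.58 to 4.79 CPM with EtOH (adjusted p = 0.832). Cyp313b1 had the lowest log2 fold change among them, -0.76, with a wide error (SE 0.37, adjusted p = 0.274) at 1.058 to 3.09 CPM with RU486 and 2.57 to 4.19 CPM with EtOH. Cyp311a1 was at 35.1 to 44.1 CPM with RU486 and 35.9 to 46.1 CPM with EtOH (adjusted p = 0.723).

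Summed over all 84 genes, P450 transcripts came to 3686, 3466 and 3770.1 CPM with RU486, against 4404, 3690.1 and 4302 CPM with EtOH. The mean was 11.9% lower with RU486, but EtOH replicate 2 lay within the RU486 range. The summed Cyp28 and Cyp309 level was 428 to 432 CPM with RU486 and 470 to 560 CPM with EtOH, without overlap. Its most abundant genes were Cyp28a5 (mean 207 CPM with RU486 and 189 CPM with EtOH) and Cyp28d1 (184 and 278 CPM). The difference lay mostly in Cyp28d1. The Cyp9 sum was likewise separate, at 490.2 to 534 CPM with RU486 and 560.3 to 638 CPM with EtOH. Cyp9f2 (mean 264 CPM with RU486 and 294 CPM with EtOH, not passed) and Cyp9b2 (145 and 199.6 CPM, called lower) led the Cyp9 sum. The mitochondrial sum was 201 to 218 CPM with RU486 and 216 to 276 CPM with EtOH, and the Cyp6 sum 1088 to 1386 CPM and 1297 to 1542 CPM, both with overlap. The Cyp4 sum, dominated by Cyp4d21 and Cyp4g15, was 1034 to 1207 CPM with RU486 and 994 to 1210.3 CPM with EtOH. In the Cyp4 group the genes that fell were of low or middle abundance, and the summed level hardly differed, by 2.02% in the mean.

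**Figure D4:**
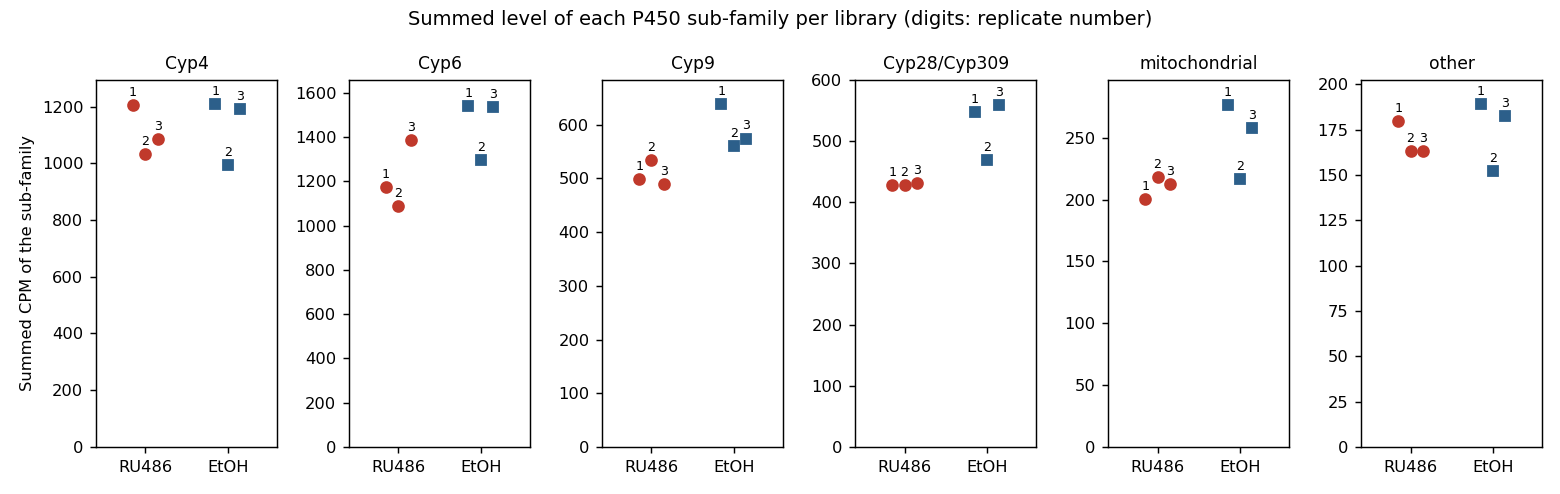
Summed CPM of each P450 sub-family in each library, RU486 as circles and EtOH as squares, with the replicate number above each point; axes start at 0. The Cyp28/Cyp309 and Cyp9 sums do not overlap between groups, and EtOH replicate 2 is the lowest EtOH library in all 6 panels.

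How far each call rests on single libraries differed between genes. Cyp28d1, Cyp309a2, Cyp4e3 and Cyp4s3 kept an adjusted p under 0.05 whichever of the 6 libraries was omitted, the highest being 0.0334, 0.0484, 0.0414 and 0.0437. Cyp9b2 was called in 5, being lost without RU486 replicate 3 (adjusted p = 0.0574), and Cyp4aa1 in 5, being lost without EtOH replicate 3 (0.0806). Cyp6g1, Cyp4d8, Cyp12a5 and Cyp12b2 were called in 1 of the 6 fits each, the fit without EtOH replicate 2, and their adjusted p reached 0.126, 0.138, 0.179 and 0.194 in the others. Omitting EtOH replicate 2 raised the number of P450 genes called lower to 14, while omitting EtOH replicate 1 or 3 left 5 and omitting RU486 replicate 3 left 4. The 14 included the 9 of all libraries, together with Cyp12a4, Cyp4e2, Cyp6a13, Cyp6a17 and Cyp6a22. Over all tested genes the calls moved the same way, from 683 with all libraries to 1441 without EtOH replicate 2. They numbered 399 and 341 without EtOH replicate 1 and 3, and 402 without RU486 replicate 3.

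Genes listed as serving P450 enzymes did not pass edgeR's test. Among all tested genes 3.28% were called lower and 4.36% higher, so lists this short would hold few calls in any case. Of 6 redox partners tested, edgeR called 0, 1 had an unadjusted p below 0.05 and DESeq2 called 1. Cpr, the reductase of the endoplasmic reticulum, was at 466, 454 and 441 CPM with RU486, against 481, 423 and 446 CPM with EtOH. Its ranges overlapped with a log2 fold change of 0.01 (SE 0.08, adjusted p = 0.954). The mitochondrial reductase dare was at 12.6 to 14.0 CPM with RU486 and 12.4 to 14.2 CPM with EtOH (-0.01, SE 0.11, adjusted p = 0.973). Cyt-b5-r, a cytochrome b5-related gene, was the exception in size, at 976, 769 and 923 CPM with RU486 and 1311, 1015 and 1223 CPM with EtOH. Every RU486 library lay below the EtOH libraries, yet Cyt-b5-r did not pass (-0.41, SE 0.12, adjusted p = 0.0705). It was called by edgeR without EtOH replicate 2 (adjusted p = 0.0163) and in no other fit that omitted a library. Of 6 heme synthesis and breakdown genes tested, from Alas, the first enzyme, to Ho, the heme oxygenase, edgeR called 0, 0 had an unadjusted p below 0.05 and DESeq2 called 0.

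Of 10 tested regulators of xenobiotic and hormone responses, edgeR called 0, 2 had an unadjusted p below 0.05 and DESeq2 called 1. The edgeR shares of all tested genes, 3.28% lower and 4.36% higher, would likewise give few calls in this list. The gene cnc, which encodes the fly Nrf2 homolog that induces detoxification genes, was at 370.0, 373 and 383 CPM with RU486, against 309.8, 325 and 305 CPM with EtOH. It was higher in every RU486 library but did not pass edgeR's test (log2 fold change 0.26, SE 0.08, adjusted p = 0.0741). DESeq2 called cnc higher (adjusted p = 0.0214), as did edgeR without EtOH replicate 2 (adjusted p = 0.0163), and over the other fits that omitted a library its adjusted p was 0.165 to 0.222. Its inhibitor Keap1 was at 40.7 to 45.7 CPM with RU486 and 34.7 to 38.7 CPM with EtOH (0.24, SE 0.08, adjusted p = 0.126). Hr96, a nuclear receptor of xenobiotic response, was at 41.3 ± 1.97 CPM with RU486 and 43.1 ± 0.513 CPM with EtOH (adjusted p = 0.680). No count was listed for usp in any library, and whether that 0 reflects expression or counting was not tested.

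Some markers of tissues that express many P450 genes also differed. Of 7 tested fat body markers 5 fell and 1 rose, while 3.28% of all tested genes were called lower and 4.36% higher. Of the 5, Yp1, Yp2 and Yp3 were each called in 1 of the 6 fits that omitted a library, and Lsp1beta and Obp99b in all 6. The marker that rose, Tsf1, was also called in all 6. Lsp1beta and Obp99b were at 9.26 ± 4.65 and 6.539 ± 3.24 CPM with RU486, against 106 ± 43.6 and 147 ± 40.9 CPM with EtOH. The 12 fat body markers summed to 7908 to 8245 CPM with RU486 and 7015 to 7636 CPM with EtOH, the sum being led by apolpp and by Tsf1, which rose. Ilp6 had no count in any library, and Lsp2 had none with RU486. The 27 digestive tract markers summed to 41.3, 11829 and 883 CPM in RU486 replicates 1 to 3, against 52.2, 69.4 and 38.1 CPM in EtOH replicates 1 to 3. Of 9 tested, edgeR called 2 higher, Amy-p and Amy-d, all 9 had an unadjusted p below 0.05 and DESeq2 called 4. Amy-p was lost without EtOH replicate 1 or 3, and Amy-d was called in 2 of the 6 fits that omitted a library. Of the digestive tract markers Mal-B1, deltaTry, Jon66Ci, Jon66Cii, LysB, LysD and LysE had no count in any library. The Malpighian tubule markers summed to 29.8 to 40.3 CPM with RU486 and 35.3 to 39.5 CPM with EtOH, with Irk3 lower among 4 tested (called in 3 of the 6 fits that omitted a library) and Uro without a count. Oenocyte markers were near 0 apart from FASN2, at 7.43 ± 1.35 CPM with RU486 and 8.26 ± 2.87 CPM with EtOH, and FarO had no count. Whether the markers without any count were not expressed or were not counted was not tested. Nor was the part of these tissues in the P450 differences.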

How the data were processed

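Per the file headers, the deposited table holds raw read counts per gene, 1 column for each library, to which the authors applied no normalisation. The labels' protocols describe 500 ng of total RNA per sample and a stranded mRNA kit, and the submitters' processing notes name the build BDGP6; no source used here gives the aligner, counter or strand setting. Symbols came from a FlyBase table that matched 17626 of 17753 identifiers, and 1-based coordinates from Ensembl release 115 on BDGP6.54.

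With edgeR 4.0.16 in R 4.3.3, filterByExpr (minimum count 10), TMM factors and the two-sided quasi-likelihood test were applied, and p-values were adjusted by Benjamini-Hochberg over 8945 genes, with calls under 0.05. SE was the absolute log2 fold change over the root of its F statistic. CPM uses TMM factors. The procedure was tested on simulated data with changes larger than those of most called P450 genes, so smaller changes were not covered. Totals of 10156909 to 12636787 counts limit precision for genes of few CPM. None of the tested P450 genes passed the filter through 1 group alone.

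The members, the lists and the rule for named genes were chosen with earlier results of these data known. The rule took Ugt35b, each P450 called, the 3 highest per length in each sub-family, 8 fixed members, neighbours of called genes, called genes of the pathway lists and Cpr, dare and cnc. All other P450 genes named, Cyt-b5-r, Keap1, Hr96, overlapping genes and tissue markers were chosen after their values were seen, as was setting aside the 2 cyclophilins. Alternatives were DESeq2 1.42.0 size factors or Wald test, other filters, a replicate block and leaving out each library. Of 8 heme genes listed, 2 were not matched by symbol and are not analysed here. No 2 libraries of a group agreed within sampling noise.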

Additional observations from a re-analysis of the deposited data

How the results depend on the processing

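Over all genes 683 were called, and leaving out 1 library gave from 341 to 1441. P450 genes called lower numbered 9, and from 4 to 14 when a library was left out. P450 genes called higher numbered 1, and from 0 to 2 in those fits. With the DESeq2 Wald test the number higher was 2, Cyp4g15 joining Cyp4aa1. The number lower was 9 with DESeq2 size factors, 7 without a filter, 9 with at least 1 CPM in 3 libraries and 8 with the Wald test. Cyp12a5 and Cyp4d8 were lost without a filter and with the Wald test, which added Cyp6a13. The labels do not link libraries that share a replicate number. Deviations of same-numbered libraries correlated at 0.12, 0.27 and -0.04, and those of other RU486 and EtOH pairs at -0.34 to 0.29. Whether same-numbered libraries were handled together was not tested. With the replicate block 872 genes were called, 11 P450 genes were lower and 1 was higher; Cyp4e2, Cyp6a8 and Cyp6w1 were added and Cyp12a5 was not called. Of the 32 named genes tested under 11 alternatives, those with a value near 0 changed sign without any call. On the log2 scale Cpr was at -0.0013 without a filter, -0.031 without EtOH replicate 2 and -0.018 without RU486 replicate 1, ranging from -0.031 to 0.045 over the fits that left out a library. In the same fits dare ranged from -0.064 to 0.021, being above 0 at 0.017 without EtOH replicate 1, 0.00088 without EtOH replicate 3 and 0.021 without RU486 replicate 1. Cyp305a1 ranged from -0.13 to 0.083, with 0.083 without EtOH replicate 1 and 0.025 without RU486 replicate 2. Cyp6a20 ranged from -0.0037 to 0.14 and Cyp9h1 from -0.022 to 0.20, both lowest without EtOH replicate 2. The cause was not tested.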

Other observations

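The 2 cyclophilins that share the Cyp prefix, with their peptidyl-prolyl isomerase role, showed little difference. Cyp1 was at 479.9, 471 and 479.97 CPM with RU486, against 568, 453 and 517 CPM with EtOH, and Cyp40 at 28.8 to 31.1 CPM with RU486 and 30.2 to 32.0 CPM with EtOH. Neither passed edgeR's test (adjusted p = 0.581 and 0.661). The annotated P450 pseudogenes Cyp6t2Psi and Cyp6a15Psi, counted among the Cyp6 genes, were detected in every library. Cyp6t2Psi had 19 to 30 counts with RU486 and 22 to 29 with EtOH, and Cyp6a15Psi had 12 to 17 counts with RU486 and 19 to 33 with EtOH, and neither passed (adjusted p = 0.826 and 0.269).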
